A study of Caenorhabditis elegans with 2 samples.

Results

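Occupancy of the zinc-finger transcription factor SEM-4 was examined at 9 genes that control the M lineage and the sex myoblasts of Caenorhabditis elegans: egl-17, egl-15, hlh-8, mls-2, sem-2, fozi-1, let-381, ceh-34 and sma-9. They were listed by name for their roles in genetics, with earlier results of these data known, and are 9 of 19973 protein-coding genes annotated on the 6 nuclear chromosomes. Each gene was taken with 10000 bp on either side. The assay was ChIP-seq of eGFP-tagged SEM-4 in whole L2 larvae of both sexes, with 1 group of 2 biological replicates and no second condition. The animals were of strain OP57, in which an integrated transgene, wgIs57, supplies the tagged protein in an unc-119(ed3) background. Tagged copies therefore exist beside the animal's own sem-4 gene. Whole larvae were used, so a signal cannot be assigned to the M lineage or to any other tissue, and a peak in few cells cannot be told apart from a weak peak in many.

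The M mesoblast is a single embryonic blast cell that divides in the larva to give body wall muscles, coelomocytes (scavenger cells of the body cavity) and the sex myoblasts. In hermaphrodites the sex myoblasts migrate forward to flank the developing gonad and later produce the vulval and uterine muscles used in egg laying. The migration is guided by the fibroblast growth factor EGL-17 and its receptor EGL-15. The lineage itself is patterned by transcription factors: MLS-2, an HMX-type homeodomain protein, and HLH-8, the Twist homologue, act early, SEM-2 (a SoxC protein) promotes the sex myoblast fate, and FOZI-1, LET-381 and CEH-34 act in the fates of the other descendants. SMA-9, the homologue of Drosophila Schnurri, acts in separating dorsal from ventral descendants, a step in which BMP-like signalling is also involved. Loss of sem-4 is known to disrupt the sex myoblasts and egg laying.

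Of the 9 genes, sma-9 had the most reproducible SEM-4 summits, with 7, although the 2490 strongest peaks of replicate 2 alone gave it 3 against 2 each for egl-15 and let-381. A summit is the base of highest enrichment in a peak, and reproducible means that the peak is in the authors' list thresholded by the irreproducible discovery rate. The summits that carried the main findings are shown here with 50 bases on either side (plus strand, ce11), to compare the base composition of the sites. In the first group, capitals mark GAGAGA or its reverse complement TCTCTC, and TTGTCT as its reverse complement AGACAA. The first lies upstream of sma-9, the next 3 lie inside it, and the last lies in ldb-1 within the egl-15 window.
sma-9 upstream, chrX:10766231-10766331: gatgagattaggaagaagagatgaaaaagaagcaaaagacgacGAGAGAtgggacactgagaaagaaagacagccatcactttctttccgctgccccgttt
sma-9 intron, chrX:10771179-10771279: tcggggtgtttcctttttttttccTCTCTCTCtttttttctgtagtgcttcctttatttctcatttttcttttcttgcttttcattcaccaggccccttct
sma-9 intron, chrX:10772206-10772306: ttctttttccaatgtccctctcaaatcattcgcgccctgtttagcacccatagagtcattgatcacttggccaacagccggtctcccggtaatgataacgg
sma-9 intron, chrX:10772837-10772937: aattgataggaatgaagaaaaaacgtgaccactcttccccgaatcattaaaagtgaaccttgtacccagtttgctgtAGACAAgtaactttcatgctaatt
ldb-1 intron, chrX:11031338-11031438: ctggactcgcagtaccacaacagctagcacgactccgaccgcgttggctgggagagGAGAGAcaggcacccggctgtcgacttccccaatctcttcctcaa
The reproducible summit inside egl-17 fell on a transfer RNA gene that lies in an intron of egl-17. In its sequence, capitals mark the 72 bases of that tRNA gene, which is transcribed from the opposite strand.
egl-17 intron, chrX:489867-489967: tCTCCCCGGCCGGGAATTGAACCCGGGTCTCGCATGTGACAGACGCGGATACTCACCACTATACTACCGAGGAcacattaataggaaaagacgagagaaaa

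In all, 11 of the 2490 reproducible summits lay in the windows of the 9 genes, and they fell on 4 of the 9. The 4 were sma-9 with 7, let-381 with 2, and egl-17 and egl-15 with 1 each. Across all protein-coding genes, 37.6% had at least 1 reproducible summit in the same kind of window, so 4 of 9 was near the background. Within the gene body there were reproducible summits in sma-9 and egl-17, which is 2 of 9 against 2.77% of all protein-coding genes. The same pair had one in the promoter window, from 1000 bp upstream to 200 bp downstream of a start, against 8.71% of all genes. For egl-17, the summit of replicate 2 fell just outside that window. These shares rest on few genes of unequal length and were not tested.

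**Figure D1:**
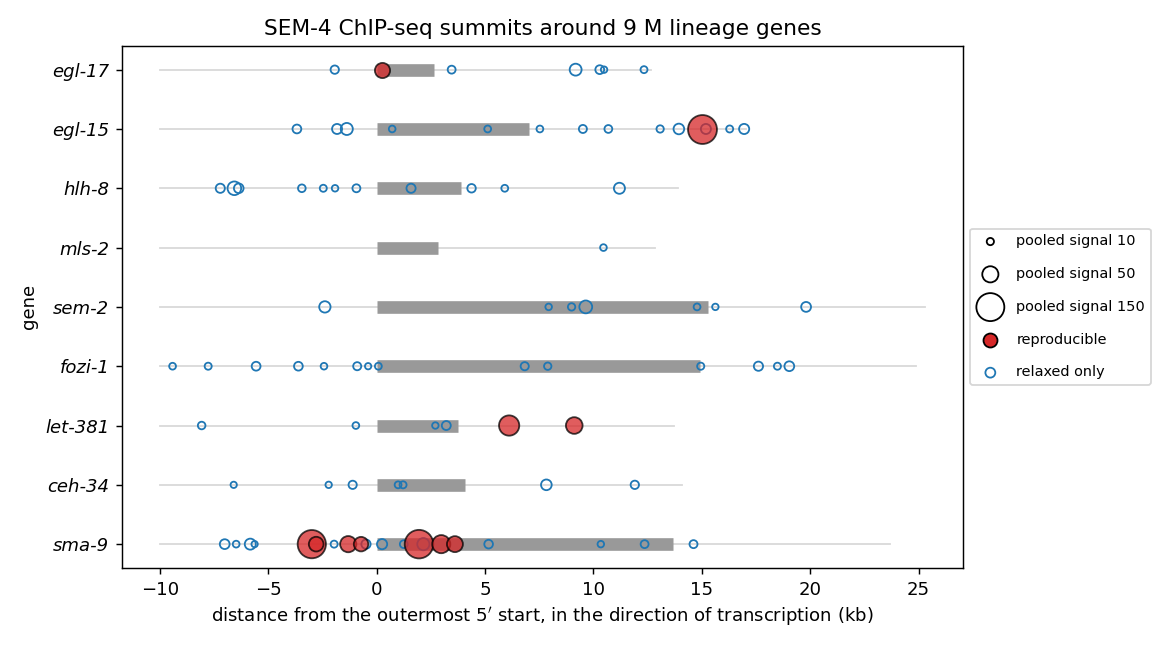
Summits of the pooled list around each of the 9 genes, by distance in kb from the outermost start of the gene in the direction of transcription. Grey bars are gene bodies, thin lines the 10000 bp on either side, circle area the pooled signal, filled red circles reproducible summits and open blue circles relaxed ones; 7 of the 11 red circles lie at sma-9.

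The sma-9 gene (WBGene00004862) spans 10769282 to 10782973 on the plus strand of the X chromosome and has 6 annotated starts. Its 7 reproducible summits formed one group upstream of the outermost start and another inside the gene. The 4 upstream summits lay 3001, 2798, 1318 and 726 bp before that start, with pooled signals of 153, 41.4, 50.4 and 40.4. Those at 3001 and 2798 bp were 203 bp apart, in peaks 132 and 89 bp wide against 350 bp for those at 1318 and 726 bp. The 7 summits may therefore not be 7 separate sites. The signal is the authors' enrichment value per peak and has no unit, and it can be ranked only within one list. The upstream summits ranked 124, 2364, 1634 and 2484 in the pooled list. The last of them lies just inside the threshold, which was a signal of 40.3.

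The other 3 summits all lay in 1 intron of 3728 bp (10769402 to 10773129) that follows the exon of the outermost start and spans the internal start at 10773081. They stood 1852, 825 and 194 bp upstream of the internal start at 10773081, with pooled signals of 156, 63.1 and 48.8. Their pooled ranks were 114, 1025 and 1751. The summit at 10771229 was the strongest of the gene, and both it and the one 3001 bp upstream stood above the upper quartile of all reproducible signals, 79.9. Reproducible summits thus stood upstream of the outermost start and of the internal start at 10773081. None lay downstream of 10773081 in the remaining gene body, which holds the later starts at 10773999 and 10777902.

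Every reproducible sma-9 summit overlapped a peak in both replicates, which follows in part from how the reproducible list was made. Positions and ranks were not always close. At 10771229 the overlapping replicate peaks had signals of 105 and 51.6 in replicates 1 and 2 (rank 216 in replicate 2), with summits 1 bp to one side and 2 bp to the other of the pooled one. At 10772256 both replicates placed the summit on the same base, with signals of 27.7 and 32.2 (ranks 2172 and 735). The 2 upstream summits at 10766281 and 10766484 were separate peaks in replicate 1 (99.4 and 60.8, ranks 114 and 403) but overlapped a single peak in replicate 2, of signal 65.3 at rank 109. That replicate 2 summit, at 10766451, lay 170 bp from the stronger pooled summit and 33 bp from the weaker one. The summit 194 bp before the internal start ranked 1406 in replicate 1 and 3195 in replicate 2. The summit 726 bp upstream ranked 2334 and 2695. The one 1318 bp upstream was the most uneven, at 1671 and 6410. When the 2490 strongest peaks of a single replicate replaced the reproducible list, replicate 1 alone gave 7 summits in the sma-9 window and replicate 2 alone gave 3, against 2 each for egl-15 and let-381.

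**Figure D2:**
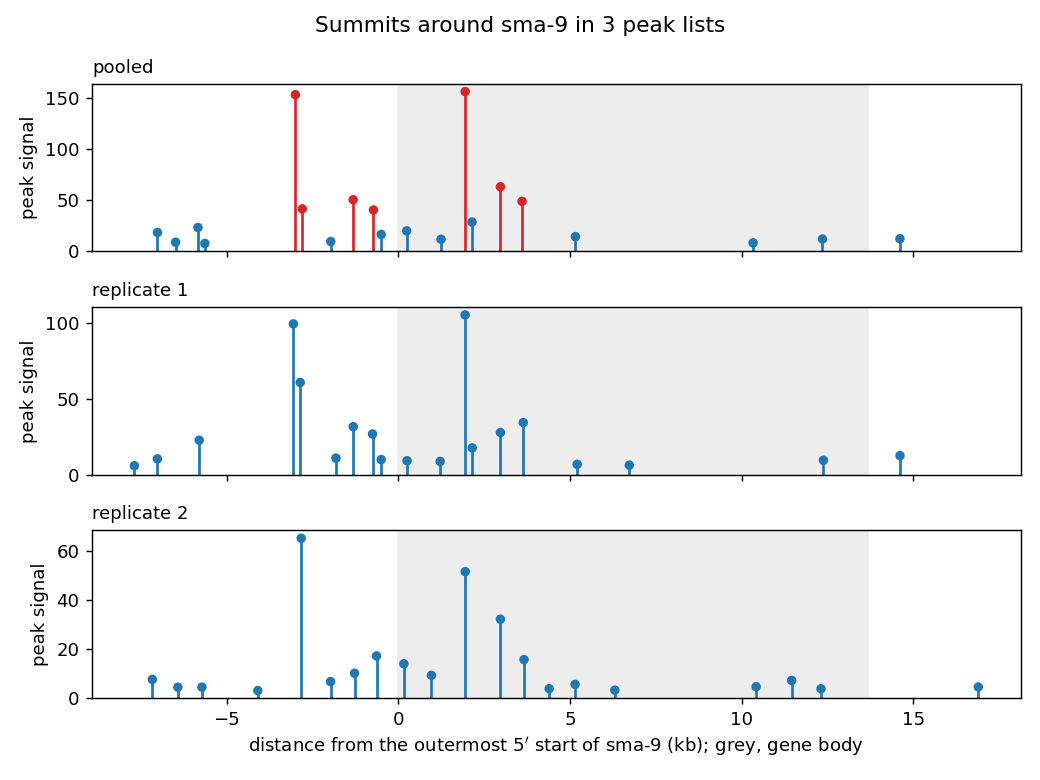
Peak signal of every summit around sma-9 in the pooled list and in each replicate's own list, by distance in kb from the outermost start. Each list has its own signal scale, grey marks the gene body, and red marks reproducible summits in the pooled list; the tallest lines stand near 3 kb upstream and 2 kb downstream of that start in all 3 lists.

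So many reproducible summits in one window were rare. A count of 7 or more was found in 15 of the 19973 protein-coding genes (0.0751%), and 3 or more within the gene body in 44 (0.22%). Both cut-offs were the counts of sma-9 itself, the highest of the 9 genes in these data. The shares therefore give its place in this list and test nothing. No such share was counted for replicate 2 alone, which gave sma-9 only 3 summits in the window. The median gene had 0 and the highest count was 11. Genes that are neighbours share summits, and longer genes have wider windows, so these genes are not independent of each other. In the relaxed pooled list, which holds 30000 peaks including background, the sma-9 window held 20 summits, or 5.94 per 10000 bp, against 2.99 per 10000 bp over the genome. Of the 13 relaxed summits at sma-9 that did not reach the reproducible list, 10 overlapped a peak in both replicates. The relaxed summit at 10771430 overlapped the same replicate 2 peak, of rank 216, as the strongest sma-9 summit.

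The ligand gene egl-17 (WBGene00001185, X, 489685 to 492318, plus strand) encodes the fibroblast growth factor that attracts the sex myoblasts. It had a single reproducible summit, at 489917, with a pooled signal of 44.2 at rank 2093. The summit was 143 bp downstream of the nearer of its 2 starts, inside the intron from 489847 to 490558. The tRNA gene WBGene00023035, from 489868 to 489939 on the minus strand, covers the summit, and its start is 22 bp away. Signal there therefore cannot be divided between the egl-17 promoter region and the tRNA gene. Over the genome, 21 of 612 annotated tRNA genes (3.43%) held a reproducible summit, and these were 21 of the 2490 summits. The replicates' peaks had signals of 27.2 and 13.7, at ranks 2250 and 4006. Replicate 1 placed its summit on the pooled base, but replicate 2 placed it 59 bp away, at 489976. That base lies outside the tRNA gene, 37 bp upstream of the tRNA start. It is 202 bp downstream of the egl-17 start, just outside the promoter window. By the ranks of 2250 and 4006, the egl-17 summit was among the top 2490 of replicate 1 and not among those of replicate 2. The next highest summit in the window, of signal 27.2, lay 9087 bp downstream of the nearer egl-17 start, over an exon of another non-coding gene.

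The receptor gene egl-15 (WBGene00001184, X, 11016400 to 11023421, plus strand) encodes the fibroblast growth factor receptor that the sex myoblasts use to respond to EGL-17. Its window held the strongest single summit of all 9 windows, at 11031388, with a pooled signal of 160 at rank 104. This summit was not at egl-15 itself. It lay 14947 bp downstream of the last egl-15 start, in an intron of the neighbouring gene ldb-1, which encodes a LIM domain-binding protein, and 1690 bp inside ldb-1 from its nearest start. The short non-coding gene F58A3.6 starts 248 bp from the summit. Both replicates had it near the top, with signals of 102 and 59.8 at ranks 107 and 145 and summits 2 and 6 bp from the pooled one.

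At egl-15 itself only relaxed summits were found. The best of them stood 1385 bp upstream of the outermost start (11015015), with a pooled signal of 27.8 at rank 4707, and ranked 3121 in replicate 1 and 17489 in replicate 2. A neighbouring one 1835 bp upstream had a signal of 19.3 and overlapped a peak of replicate 1 (rank 5814) and none of replicate 2. The gene body held a pair, with signals of 8.58 and 8.98. Within the promoter window the pooled list held no egl-15 summit, while replicate 2's own list had weak ones 108 and 530 bp upstream, at ranks 17419 and 24730.

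Among the transcription factors that act early in the lineage, neither hlh-8 nor mls-2 had a reproducible summit in its window. For hlh-8 (WBGene00001953, X, 8116457 to 8120351, plus strand), the strongest of 11 relaxed summits was at 8109882, with a pooled signal of 35.5 at rank 3136, below the threshold of 40.3. It lay 6575 bp upstream of hlh-8 but only 557 bp upstream of the neighbouring gene K07E3.1. It ranked 4136 in replicate 1 and 2397 in replicate 2, so it would count among the top 2490 of replicate 2 alone. Closer to hlh-8, a summit 942 bp upstream had a signal of 12.1 (ranks 13243 and 21058 in the replicates). An intron summit 1402 bp downstream of a start had 16.0 and overlapped a peak of replicate 1 only.

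The mls-2 window (WBGene00003377, X, 4758804 to 4761640, minus strand) was nearly empty. It held 1 pooled relaxed summit, with a signal of 8.60 at rank 26219, which lay 10460 bp from the mls-2 start and 2097 bp upstream of its neighbour lon-2. Replicate 1's list had 2 weak summits in the window and replicate 2's list had 0. Across all protein-coding genes, 21.0% had at most 1 relaxed summit in such a window, so this too was common. The nearest reproducible summit to mls-2 lay 40900 bp upstream of its start, and that to hlh-8 lay 42498 bp downstream of its start. The median over all protein-coding genes was 17558 bp, and 25.6% were more than 40000 bp from one.

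The SoxC gene sem-2 (WBGene00004771, chromosome I, 5204530 to 5219815, minus strand), which promotes the sex myoblast fate, had no reproducible summit either, but came close within an intron. The summit at 5210172, 2044 bp upstream of the internal start at 5208128, had a pooled signal of 31.5 at rank 3825. It ranked 2158 in replicate 1, with a signal of 27.8, and 11211 in replicate 2, with 6.76. Replicate 1 alone would therefore have placed it among its top 2490. A second relaxed summit, 2397 bp upstream of the outermost start, was more even between the replicates, with a pooled signal of 24.7 and ranks of 5784 and 5322. The pooled list had no summit in a sem-2 promoter window. Replicate 1's own list had 2 weak ones, 967 bp upstream of the start at 5215218 (signal 7.51, rank 21778) and 136 bp downstream of the start at 5208128 (rank 27953). Replicate 2's list had 1, 144 bp upstream of 5208128 (rank 23141).

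The forkhead gene let-381 (WBGene00002601, chromosome I, 6320289 to 6324019, minus strand) had 2 reproducible summits in its window, both beyond its 3' end and both nearest to other genes. The stronger, at 6317912, had a pooled signal of 78.8 at rank 647 and lay 118 bp upstream of a start of hrpk-1, which encodes an hnRNP K homologue. The other, at 6314907, had 53.3 at rank 1466 and lay 326 bp upstream of ima-2, an importin alpha gene. From the let-381 start they were 6107 and 9112 bp away. Both were ranked higher in replicate 2 (439 and 957) than in replicate 1 (1069 and 2504). At let-381 itself the relaxed summits were weak, with 8.73 at 967 bp upstream and 15.4 and 8.05 in the gene body, and each overlapped a peak of replicate 1 only.

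For fozi-1 (WBGene00010453, III, 9281780 to 9296675, plus strand), which encodes a zinc-finger protein with formin homology, 14 relaxed summits lay in the window and none was reproducible. Their pooled signals ran from 7.67 to 18.4. The 3 in the promoter window had 12.5, 7.67 and 9.10 and overlapped no peak of either replicate. The nearest reproducible summit, at 9271715 with a signal of 63.9, lay 10065 bp upstream of the start and so just outside the window. For the Six-family homeobox gene ceh-34 (WBGene00000455, V, 5315496 to 5319577, minus strand), 7 relaxed summits had signals from 7.62 to 21.8. The highest was 183 bp upstream of the neighbouring gene C10G8.4. The best on the ceh-34 side, 1115 bp upstream of its start, had 13.1 and overlapped a peak of replicate 1 only. The nearest reproducible summit was 44428 bp from the ceh-34 start.

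Of the 11 reproducible summits, 8 had the start of one of the 9 genes as their nearest protein-coding start, and all 8 belonged to sma-9 and egl-17. The other 3 were nearest to ldb-1, hrpk-1 and ima-2. When starts of all annotated gene types were used, the count fell to 3, all in the sma-9 intron. The 4 upstream sma-9 summits were then nearest to the non-coding gene T05A10.8, which runs from 10768872 to 10769074 on the same strand, and the egl-17 summit was nearest to the tRNA gene. All 11 overlapped a peak in both replicates' lists by at least 1 bp. The reproducible list was derived from those lists and their pool, so this overlap is in part built into the selection. The count was 8 when at least 50% of each peak had to overlap, and 10 when the replicate summits had to lie within 100 bp. Peak width alone decided the 50% rule at the sma-9 summits 10766281, 10766484 and 10771229. Their pooled peaks, 132, 89 and 145 bp wide, are too narrow to cover 50% of a 330 bp replicate 2 peak. In both replicates' own rankings, 6 of the 11 lay within the top 2490. They were the ldb-1 summit, the hrpk-1 summit and 4 of the sma-9 summits, of which those at 10766281 and 10766484 share 1 replicate 2 peak. These replicate counts were not made over all 2490 reproducible summits, so whether the 11 agree better or worse than the list is unknown. In the relaxed list, 5 of the 9 genes had a summit in the promoter window, against 38.4% of all protein-coding genes.

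**Figure D3:**
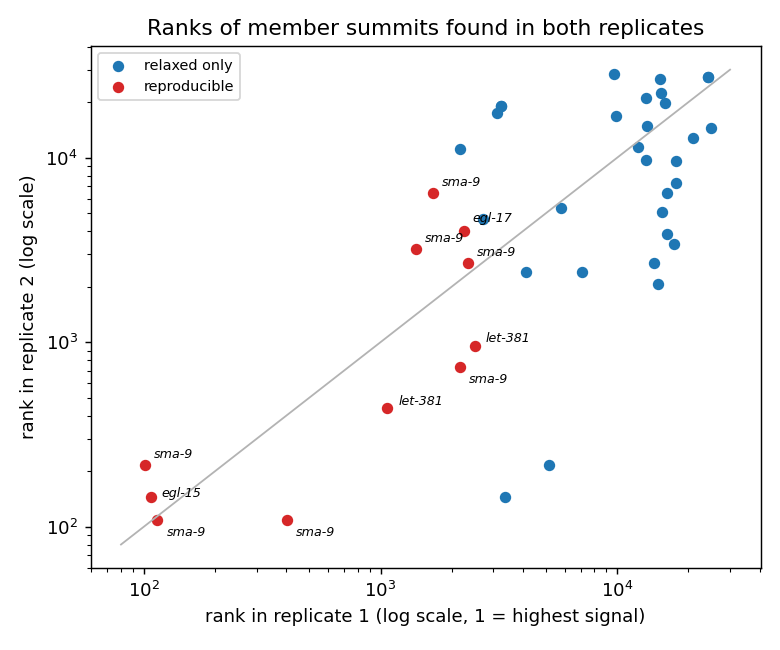
Rank in replicate 1 (x axis) and replicate 2 (y axis), both on log scales with 1 as the highest signal, of the pooled summits in the 9 windows that overlapped a peak in both replicates. Red points are the 11 reproducible summits with the gene whose window holds them, blue points the 31 relaxed ones, and the grey line marks equal ranks; some blue points share a replicate peak with a red one.

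The sequences at the summits were searched for 2 words described for SEM-4, TTGTCT and TTGTGT. Within 50 bases of the summit, TTGTCT was found on either strand in 1 of the 11, the sma-9 intron summit 194 bp before the internal start, and TTGTGT in none. Either word was found in 18.6% of all 2490 reproducible summits and 14.1% of the other 27510 pooled ones. A count of 1 in 11 is too small to tell from these shares. CATATG, an E box bound by HLH-8, was found in none of the 11, against 1.08% of reproducible summits. GAGAGA, searched for after the sequences had been seen, was in 5 of the 11 against 30.8% of reproducible and 10.6% of the other pooled summits. The 5 were the summits in egl-17, ldb-1 and hrpk-1, and the 2 strongest at sma-9. None of the 11 held matches to more than 1 of these 4 words, and a match shows only that the letters occur.

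Beyond the 9 genes, 49 other genes of the lineage and its signalling pathways were examined in 5 lists. Of the 49, 26 had a reproducible summit in the 10000 bp window (53.1% against 37.6% of all protein-coding genes), 6 in the gene body (12.2% against 2.77%) and 5 in the promoter window (10.2% against 8.71%). The promoter share was close to the background. Longer genes have more room for a body summit, gene length was not matched, and these shares were not tested. Of the 16 fate regulators, 3 carried such a promoter summit. They were the TALE homeobox gene ceh-20 at 752 bp upstream (pooled rank 781), the Hox gene mab-5 at 837 bp (rank 1142) and the Nemo-like kinase gene lit-1 at 989 bp (rank 1483). The lit-1 summit lay in an intron, upstream of an internal start, while those of ceh-20 and mab-5 lay outside the gene body. All 3 ranked lower in replicate 2 than in replicate 1. The replicates differed most at ceh-20, which ranked 524 in replicate 1 and 20347 in replicate 2. In the same order, mab-5 ranked 667 and 6023, and lit-1 ranked 986 and 3023.

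Among the same regulators, and named after their values were seen, lag-1 (the Notch pathway's DNA-binding protein) held an intron summit of signal 112 at rank 282, with ranks of 230 and 467 in the replicates. The homeobox gene unc-62 held 2 summits in its 5' UTR, with 76.7 and 43.0. The body of lit-1 held 3 reproducible summits, all in introns, as many as the body of sma-9. They lay 989 bp upstream, 329 bp upstream and 1035 bp downstream of their nearest lit-1 starts. Their pooled ranks were 1483, 2147 and 2373. Of the 12 fibroblast growth factor signalling genes, 8 held one within the 10000 bp window and none at a promoter. The shares of all protein-coding genes were 37.6% and 8.71%. The highest in these windows were 126 near mpk-1, 91.2 near sem-5 and 82.1 near lin-45, and each was nearest to the start of another gene (nhr-20, dct-1 and usp-4). The highest in the sos-1 window, a gene also named after its values were seen, was the unc-62 summit of 76.7 again. The body of mpk-1, the ERK-type kinase gene, held 1 intron summit of 93.8. Of the 12 BMP-like signalling genes, 7 had one in the window, beside the same share of 37.6%. Only unc-40, a netrin receptor gene, had a promoter summit (70.8 at 293 bp upstream, ranks 3923 and 237 in replicates 1 and 2), beside 8.71%. The genes that follow were named after their values were seen. The strongest summit in the windows of sma-2, sma-3, sma-4, sma-6 and drag-1 was in each case nearest to the start of another gene. That of daf-4 was nearest to daf-4 itself, 3645 bp upstream.

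Of the 3 migration genes all had a reproducible summit in the window, against 37.6% of all protein-coding genes. The guanine nucleotide exchange factor gene unc-73 had one of 54.8 at 917 bp upstream of a start and one of 61.0 in a coding exon, and unc-53 (named after its values were seen) had one of 53.4 in an intron. The 6 genes for differentiated products of the lineage, unc-54, myo-3, arg-1, cup-4, unc-122 and lgc-26, had none in their windows.

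**Figure D4:**
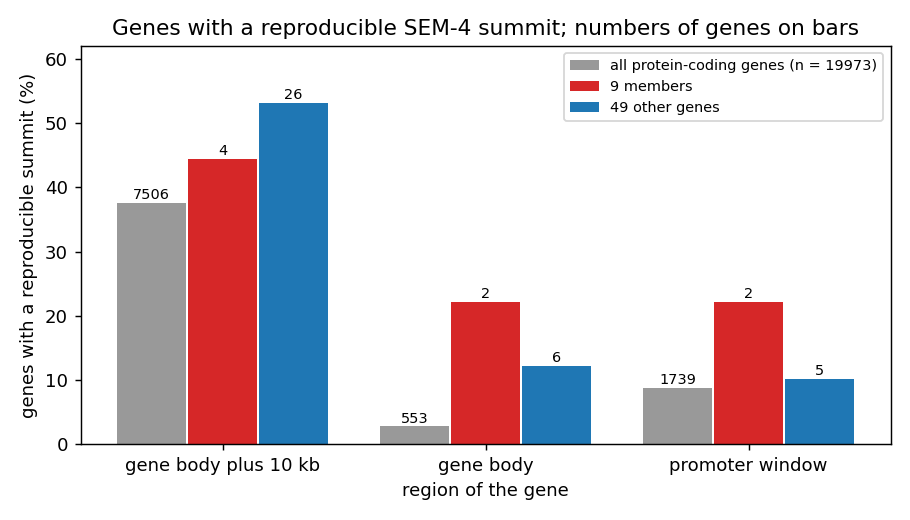
Share of genes (%) with at least 1 reproducible summit in the gene body plus 10000 bp, in the gene body and in the promoter window, for all protein-coding genes, the 9 lineage genes and the 49 other genes. Bars start at 0 and carry the number of genes; in the promoter window 2 of 9 and 5 of 49 stand beside 8.71% of all genes.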

How the data were processed

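Peak lists of SEM-4 ChIP-seq from 2 biological replicates were used as deposited. The authors called relaxed peaks against a control in replicate 1, in replicate 2 and in their pool, and derived the reproducible list from these by the irreproducible discovery rate, per the text lists of files in the deposit. The deposited signal value per peak and its −log10 q-value are the authors' own, and only signal was used, to rank peaks within a list. Aligner, caller and threshold are not given in the sources used here, and the lists hold no read counts, so depth and counting error are unknown. The 2490 reproducible peaks were the 2490 of highest signal in the pooled list of 30000.

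Coordinates are 1-based on ce11, whose chromosome lengths hold every peak and match the reference (WBcel235, genes of Ensembl release 115, RefSeq sequence). Peaks were placed by summit. Replicate values are those of the peak overlapping by at least 1 bp with the nearest summit. The 9 genes, the other 49, the motifs except GAGAGA, the windows and the alternatives were chosen with earlier results of these data known, so no test was run on them and background shares over all protein-coding genes are given instead. Counting and motif code was tested on simulated data. Named are the 9 genes, genes with the nearest start to their summits and, in each other list, genes with a reproducible promoter summit or, where none had one, the 3 of highest signal; others are said to be chosen later. Lists on the older assembly ce10 and the control were not analysed here. Computation used Python 3.11.15, numpy 2.4.6 and pandas 2.3.3.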

Additional observations from a re-analysis of the deposited data

How the results depend on the processing

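Of 40 alternatives, 22 left a count within 1.5 times its reported value and 18 did not. No paired analysis was possible because there is 1 group and no test. The reported counts were 4 genes with a summit in the window, 11 summits, 2 genes with one in the body, 2 with one in the promoter window, 11 summits in both replicates, 8 nearest to one of the 9 genes, 1 with TTGTCT or TTGTGT, and 5 of the 49 other genes with a promoter summit. With the 1245 reproducible peaks of highest signal they became 3, 5, 1, 1, 5, 3, 0 and 3. Using the top 2490 peaks of replicate 2 or of replicate 1 alone, the ranges were 4 to 5 genes, 8 to 11 summits, 1 to 3 in bodies, 1 to 2 in promoters, 3 to 9 nearest, 0 to 1 with the motif and 4 to 7 other genes. Replicate 2 alone lost egl-17 and gained hlh-8, and replicate 1 alone gained sem-2. A flank of 2000 bp left 2 genes and 6 summits. A promoter window of 500 bp upstream and 100 bp downstream left 1 of the 9 genes and 2 of the 49. Starts of all gene types left 3 summits nearest to the 9 genes. A motif window of 51 bp gave 0 summits with the motif, and one of 100 bases on either side gave 2. Smaller flanks, windows and lists hold fewer summits by construction. Without read counts, a gene with no reproducible summit is not shown to be unbound.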

Other observations

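The base composition of the 11 summits spanned a wide range. The ldb-1 and hrpk-1 summits had the highest G and C content within 50 bases of the summit, 60.4% and 59.4%, and the sma-9 intron summits at 10772887 and 10771229 the lowest, 36.6% and 37.6%. The median was 46.5% over all reproducible summits (quartiles 41.6% and 51.5%) and 35.6% over the other pooled summits.

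The windows also differed in how many relaxed summits they held. Counts per 10000 bp were 5.94 at sma-9, 5.18 at egl-15, 4.60 at hlh-8 and 4.01 at fozi-1, against 0.438 at mls-2 and 1.98 at sem-2. The median over the windows of all protein-coding genes was 2.37. The relaxed list includes background peaks, so these counts describe the list and not occupancy.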
